A study of Mus musculus with 10 samples.

Results

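The 8 genes described here, Rbm11, Lipi, Gbe1, Vgll3, Chmp2b, Htr1f, Cggbp1 and Zfp654, lie on mouse chromosome 16 on the proximal side of the Dp3Yah duplication, outside the interval that the study describes as duplicated. They were chosen by position and with their Dp3Yah and control values in view, so the difference between the groups is given below as a description with no test. All 8 were measured, among 19939 genes in all, and each had 1 probe set (the group of array probes summarised to 1 value). Rbm11 gave the set its name. The other 7 were taken as genes farther out, and the set skips genes that lie between them. Named from Hspa13 outwards, the order is that given in the first sentence.

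The study compared the hippocampus (right and left together) of 5 Dp3Yah mice with that of 5 control littermates, all males aged 16 weeks, on Affymetrix Mouse Gene ST arrays, 1 array a mouse. Dp3Yah mice carry 3 copies, and controls 2, of the chromosome 16 interval from Hspa13 to Gabpa. The labels put all 10 mice on a C57BL/6N background, while the methods of the study describe backcrossing towards C57BL/6J. The duplication is present in every cell of the animal, and the array reads whole tissue, so that fewer cells of a type and less RNA per cell cannot be told apart. Values are on the log2 scale after RMA (background correction, a common distribution for all arrays, and a summary of probes), and a difference is the Dp3Yah mean minus the control mean. Levels of different probe sets are not compared, apart from ranks of level used to call a probe set dim or to set a lower limit.

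Rbm11 encodes an RNA-binding protein found mainly in brain and testis that acts on the choice of splice sites. Its partners outside this set include the splicing factor SRSF1, whose effect on Bcl-x splicing it opposes. Lipi encodes a phospholipase of the pancreatic lipase family, known mainly from testis, and Gbe1 the enzyme that adds branches to glycogen. Vgll3 is a cofactor of the TEAD transcription factors, Chmp2b a subunit of the ESCRT-III membrane-cutting complex known from frontotemporal dementia, and Htr1f an inhibitory serotonin receptor. Cggbp1 binds CGG repeats such as that of FMR1, and Zfp654 is a zinc finger gene. The human counterparts of Rbm11 and Lipi lie on Hsa21 like those of the duplicated genes, and those of the other 6 lie on Hsa3.

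Start regions are shown for Rbm11, the member with the largest difference, and for Cggbp1, whose start lies close to the annotated span of its neighbour Zfp654. Both are plus-strand windows of 300 bases, from 250 before to 50 after a start, of the RefSeq annotation of GRCm38.p6. That of Rbm11 is chr16:75592641-75592940, and its capitals mark the GC box (GGGCGG, or CCGCCC on the other strand). The start used for it lies inside the annotated span of Rbm11, which begins at 75592844. More than 50 bases of that window therefore lie in the span. The window of Cggbp1 is chr16:64851751-64852050, and its capitals mark the 63 bases between the annotated spans of Zfp654 and Cggbp1. The bases before them lie in the span of Zfp654, whose strand was not read here, and those after them in that of Cggbp1.
Rbm11: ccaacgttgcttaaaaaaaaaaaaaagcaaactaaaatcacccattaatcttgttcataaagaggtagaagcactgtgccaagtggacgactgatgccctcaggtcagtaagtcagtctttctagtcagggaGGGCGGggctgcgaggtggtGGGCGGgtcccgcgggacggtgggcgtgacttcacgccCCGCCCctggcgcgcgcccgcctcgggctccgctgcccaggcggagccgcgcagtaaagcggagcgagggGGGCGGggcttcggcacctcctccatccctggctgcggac
Cggbp1: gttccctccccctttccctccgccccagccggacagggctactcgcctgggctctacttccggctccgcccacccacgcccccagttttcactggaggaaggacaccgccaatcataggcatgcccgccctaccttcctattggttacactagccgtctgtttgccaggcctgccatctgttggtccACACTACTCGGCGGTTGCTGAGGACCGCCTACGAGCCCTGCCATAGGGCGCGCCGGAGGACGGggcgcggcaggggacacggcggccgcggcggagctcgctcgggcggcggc

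Windows were held for 6 of the 8 members, Rbm11, Gbe1, Vgll3, Chmp2b, Htr1f and Cggbp1. The GC content was 62.0% for Rbm11, 54.3% for Gbe1, 65.3% for Vgll3, 60.0% for Chmp2b, 53.0% for Htr1f and 68.7% for Cggbp1, against a median of 52.7% over 32851 windows of this length. All 6 were above that median. GC boxes, counted on both strands, numbered 4 in Rbm11, 4 in Cggbp1, 3 in Vgll3, 1 in Gbe1, 1 in Htr1f and 0 in Chmp2b, and 35.7% of all windows hold at least 1. The letters CGGCGG, searched on both strands because Cggbp1 binds CGG repeats, were found in the Cggbp1 window alone among the 6 (4 times), and 18.7% of all windows hold them. Matches of CGGCGG and GGGCGG can overlap. The letters CCAAT were found in Cggbp1 and Vgll3 (2 times each, 37.4% of all windows), and TATAAA in none of the 6 (13.6% of all windows). Of these letters the Rbm11 window therefore held the GC box alone, with 4 matches.

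Rbm11 was higher in each Dp3Yah mouse than in any control. It lies at chr16:75592844-75602825, and 152 kb separate its end from the start of Hspa13, the first duplicated gene. Its log2 value in the Dp3Yah mice was 7.26, 7.09, 7.37, 7.06 and 7.42, and in the controls 6.89, 7.03, 7.01, 7.01 and 6.99. All 5 Dp3Yah mice were above every control, and they fell into a lower pair just above the controls (replicates 2 and 4) and 3 higher mice. The mean was 7.24 ± 0.16 (SD, n = 5) against 6.99 ± 0.057 (SD, n = 5), a difference of 0.26 (SE 0.069, 95% interval 0.11 to 0.41), or 1.19-fold (interval 1.08 to 1.32). The 5 values spanned 0.36 in Dp3Yah mice and 0.15 in controls. The size of the difference was at the 99.6th percentile of all genes.

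Lipi is the next gene, at chr16:75540514-75586072, 169 kb from Hspa13. Its values were 4.31, 4.31, 4.39, 4.30 and 4.31 in Dp3Yah mice and 4.35, 4.29, 4.23, 4.33 and 4.30 in controls. The groups overlapped, with 4 of 5 Dp3Yah mice inside the control range. The difference was 0.024 (SE 0.038, interval -0.059 to 0.11). The probe set was dim, at the 11.8th percentile of the levels of all genes.

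**Figure D1:**
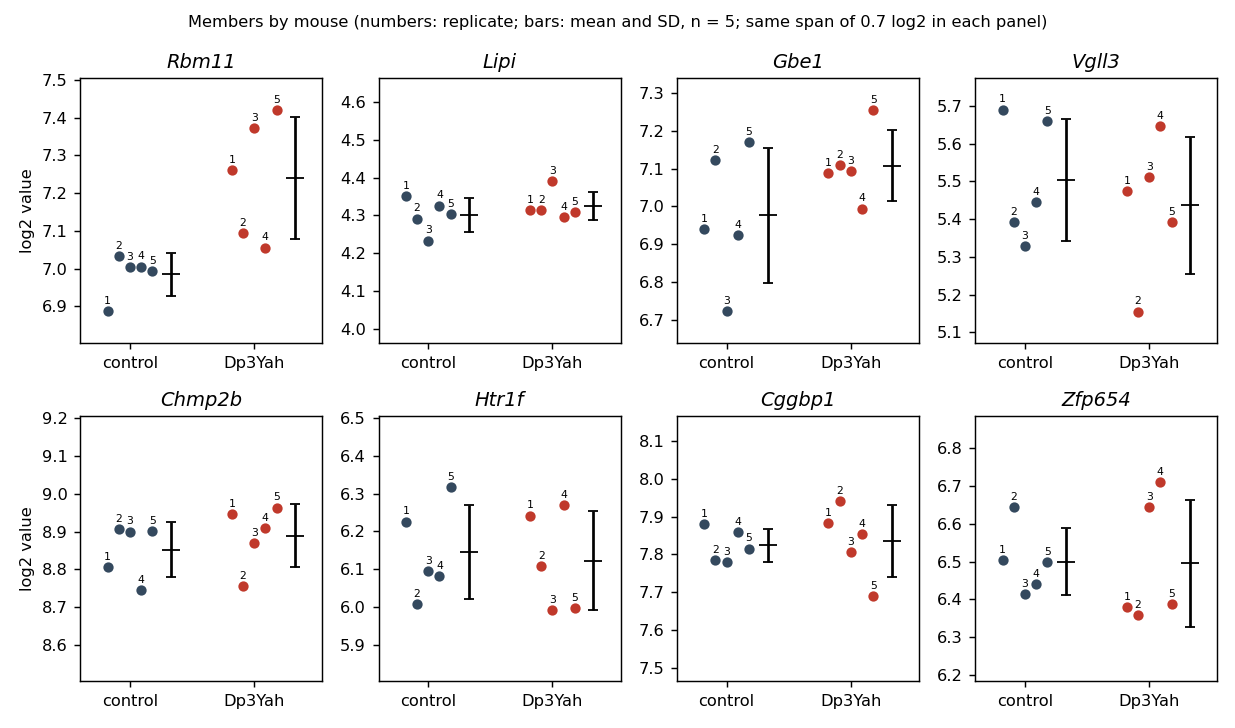
Log2 value of each member in each mouse (points, numbered by replicate), with the mean and SD of the 5 control and 5 Dp3Yah mice beside them and the same span of log2 units on each vertical axis. Rbm11 is the member in which all 5 Dp3Yah mice lie above the controls.

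Gbe1 lies 5.19 Mb from Hspa13, at chr16:70313949-70569720. Its values were 7.09, 7.11, 7.09, 6.99 and 7.25 in Dp3Yah mice and 6.94, 7.12, 6.72, 6.92 and 7.17 in controls. The groups overlapped, all 5 Dp3Yah mice were above the control mean but 1 was above every control, and the spread was wider among controls, in which replicate 3 was low. The difference was 0.13 (SE 0.079, interval -0.039 to 0.30), the second largest of the 8. Without control replicate 3 it was 0.068 (SE 0.067), and without control replicate 5 it was 0.18 (SE 0.076).

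The other 5 members form a cluster between 9.89 and 10.9 Mb from Hspa13. Chmp2b (chr16:65539128-65562762) measured 8.95, 8.76, 8.87, 8.91 and 8.96 in Dp3Yah mice and 8.81, 8.91, 8.90, 8.75 and 8.90 in controls. Here 3 Dp3Yah mice were above every control, by little, and the difference was 0.037 (SE 0.051, interval -0.073 to 0.15). Vgll3 (chr16:65815189-65866368) measured 5.47, 5.15, 5.51, 5.65 and 5.39 against 5.69, 5.39, 5.33, 5.45 and 5.66 in controls. Its groups overlapped, 1 Dp3Yah mouse was below every control, and the difference was -0.067 (SE 0.093, interval -0.27 to 0.13).

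Htr1f (chr16:64924729-65105784) measured 6.24, 6.11, 5.99, 6.27 and 6.00 in Dp3Yah mice and 6.23, 6.01, 6.09, 6.08 and 6.32 in controls. The groups overlapped, with 2 Dp3Yah mice just below the lowest control, and the difference was -0.023 (SE 0.072, interval -0.18 to 0.13). Cggbp1 (chr16:64852001-64859491) measured 7.88, 7.94, 7.81, 7.85 and 7.69 against 7.88, 7.78, 7.78, 7.86 and 7.82 in controls. The groups overlapped with a difference of 0.011 (SE 0.049, interval -0.096 to 0.12), and the Dp3Yah mice ran wider (a range of 0.25 against 0.10).

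Zfp654 (chr16:64780347-64851937) measured 6.38, 6.36, 6.64, 6.71 and 6.39 in Dp3Yah mice and 6.50, 6.64, 6.41, 6.44 and 6.50 in controls. No Dp3Yah mouse lay inside the control range, since 2 were above it (replicate 3 by less than the last digit printed) and 3 below it. The means were equal at 6.50, with a difference of -0.0042 (SE 0.075, interval -0.17 to 0.16).

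In counts, 5 of the 8 members had a positive difference (46.8% of all genes did), and the groups did not overlap in the higher direction in 1 of 8 (0.522% of all genes, and 0.913% in either direction). By limma with Benjamini-Hochberg adjustment over all 19939 genes, 0 of 8 passed an adjusted p of 0.05 (0.0150% of all genes). At an unadjusted p of 0.05, 1 of 8 did (5.08% of all genes, 2.49% higher and 2.59% lower). A rank test on fold changes of the kind the study used put 1 of 8 past its threshold (4.59% of all genes). The 1 was Rbm11 in each case. These counts come from the contrast that chose the members, and nothing is read from them. The median difference was 0.017 over the 8 and 0.011 without Rbm11, with -0.0047 over all genes.

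**Figure D2:**
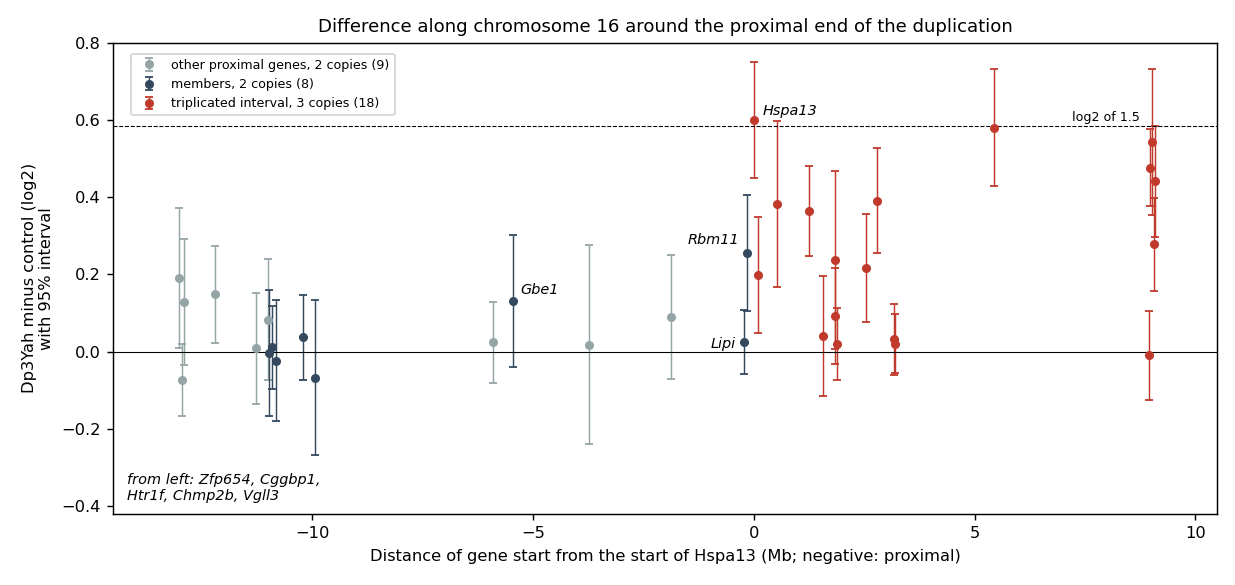
Difference between Dp3Yah and control means (log2, points) with its 95% interval (bars) against the distance of the gene's start from that of Hspa13 in Mb, for the 8 members, 9 other genes proximal of the interval and the 18 genes of the triplicated interval. Rbm11 lies at 0.26, Lipi beside it at 0.024, and the dashed line is the log2 of 1.5, the ratio of 3 copies to 2.

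The first genes inside the interval give the scale. Hspa13, an endoplasmic reticulum chaperone of the Hsp70 family, measured 9.07, 9.11, 8.88, 8.99 and 8.88 in Dp3Yah mice and 8.62, 8.30, 8.31, 8.29 and 8.41 in controls, with no overlap. Its difference was 0.60 (interval 0.45 to 0.75), which does not reach down to the interval of Rbm11. Samsn1, an adaptor protein of lymphocytes, had 0.20 (interval 0.048 to 0.35), and Nrip1, a corepressor of nuclear receptors, 0.38 (interval 0.17 to 0.60). Both of these intervals overlap that of Rbm11. The 18 measured genes of the interval ran from -0.0099 (Mir155, a microRNA gene) to 0.60 (Hspa13). Whether Rbm11 differs from these genes was not tested.

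The 9 other measured genes within 15 Mb proximal of Hspa13 were not among the listed members and were read from the annotation. Their median difference was 0.083, and 8 of 9 were positive (46.8% of all genes were). By limma 0 of 9 passed after adjustment over all genes, and 2 had an unadjusted p under 0.05 (5.08% of all genes had). These were Epha3, an ephrin receptor (0.15, SE 0.058, limma adjusted p = 0.922), and Nsun3, a mitochondrial RNA methyltransferase (0.19, SE 0.084, limma adjusted p = 0.922). The axon guidance receptors Robo2, the nearest of the 9 to Hspa13 at 308 kb, and Robo1 had differences of 0.089 (SE 0.074) and 0.017 (SE 0.12). The anticoagulant Pros1 had 0.13 (SE 0.076), and the lowest of the 9 was Stx19, a syntaxin, at -0.074 (SE 0.043). Cadm2 and Pou1f1, in the same stretch, were not analysed here.

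Farther out, the median difference was 0.0097 over the 82 genes between 15 and 30 Mb from Hspa13, -0.0075 over 140 genes between 30 and 45 Mb, -0.0061 over 163 genes between 45 and 60 Mb, and 0.0021 over 103 genes between 60 and 75 Mb. Among all 497 measured proximal genes of the chromosome without the members, 0 passed by limma and 31 passed an unadjusted p of 0.05, with 19 higher (5.08% of all genes passed, 2.49% higher). The median of the 9 nearer genes rested on few genes, and was 0.024 when the limit was set at 10 Mb. Without Dp3Yah replicate 1 it was 0.039, and without control replicate 2 it was 0.13.

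**Figure D3:**
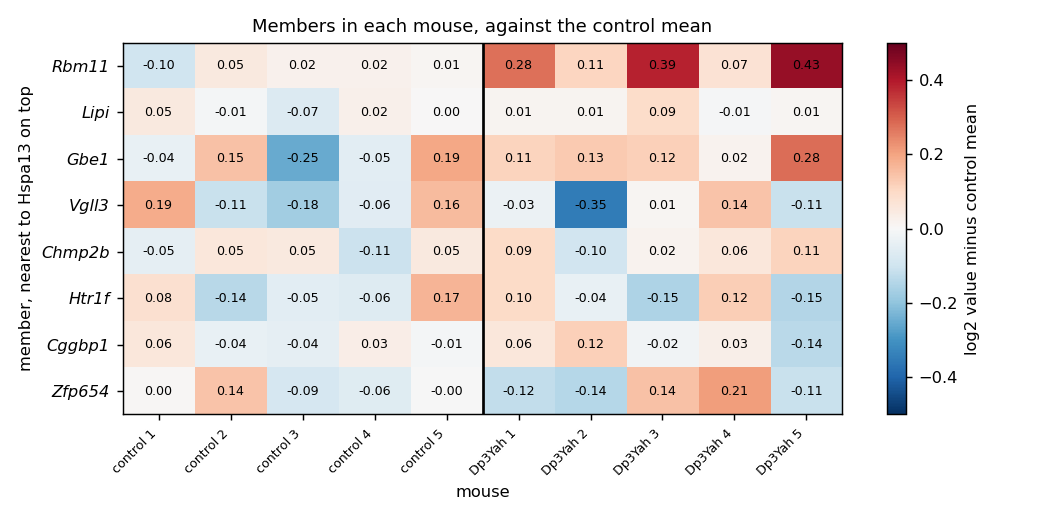
Log2 value of each member in each mouse minus the control mean of that member (colour and printed value), with members ordered from Hspa13 outwards and the line separating controls from Dp3Yah mice. The Rbm11 row is above the control mean in all 5 Dp3Yah mice, by the largest amounts of the 8 rows in replicates 1, 3 and 5. The Gbe1 row is also above the control mean in all 5, but by less than the spread of its controls in most mice, and the other 6 rows hold both signs among Dp3Yah mice.

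Variation within the groups was compared between members. Each value was set against its group mean, which removes the difference that chose the members, and Pearson's r was taken over the 10 mice for the 28 pairs with an exact permutation test within groups (two-sided). The r ran from -0.775 to 0.595 with a median of 0.0971. After Benjamini-Hochberg adjustment over the 28 pairs 0 passed, and 2 had an unadjusted p under 0.05, both with Cggbp1. Rbm11 and Cggbp1 had r = -0.775 (exact permutation p = 0.0332, adjusted 0.592), with a Spearman's rho of -0.624 (exact permutation p = 0.0942) and r = -0.519 without the 2 mice farthest from the median of Cggbp1. Chmp2b and Cggbp1 had r = -0.699 (exact permutation p = 0.0423, adjusted 0.592), with rho = -0.636 (exact permutation p = 0.0771) and r = -0.449 without 2 mice. By Spearman's rho 1 pair had an unadjusted p under 0.05, Rbm11 and Htr1f, with rho = -0.721 (exact permutation p = 0.0292, adjusted 0.659) and r = -0.625 (exact permutation p = 0.0914, adjusted 0.652). By r no pair had an unadjusted p under 0.05 without Dp3Yah replicate 5 or without control replicate 1, and in Dp3Yah replicate 5 Rbm11 was highest and Cggbp1 lowest. Cggbp1 and Zfp654, whose spans lie 63 bases apart, had r = -0.100 (exact permutation p = 0.849, adjusted 0.970).

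The mice differed in the make-up of the dissected tissue. The level of 10 choroid plexus markers (the mean of their log2 values) ran from 6.07 to 7.81 in Dp3Yah mice and from 6.00 to 7.93 in controls, with 5 mice near 6 and 5 above 7. The 5 high ones were Dp3Yah replicates 1, 2 and 5 and control replicates 1 and 5. The 10 markers of dentate granule cells had a mean difference of -0.14 (7.65 to 7.94 in Dp3Yah mice, 7.81 to 8.05 in controls), with 2 of 10 positive, 0 of 10 past the adjusted limma threshold and 4 of 10 at an unadjusted p under 0.05. The 9 of microglia had a mean difference of 0.084 (7.94 to 8.15 against 7.86 to 7.98), with 9 of 9 positive and 2 at an unadjusted p under 0.05. The 9 of CA pyramidal cells had 0.10 (9.05 to 9.33 against 9.04 to 9.22), with 7 of 9 positive and 1 at an unadjusted p under 0.05. The 10 of neocortex and subiculum had -0.071 (7.47 to 8.30 against 7.91 to 8.33), with 2 of 10 positive, and the 9 of oligodendrocytes had -0.0020 (9.73 to 10.3 against 9.83 to 10.2), with 5 of 9 positive. The choroid plexus markers had 0.13, with 8 of 10 positive. In these 5 lists no marker passed the adjusted limma threshold. Beside the counts of all the lists, 46.8% of all genes had a positive difference and 5.08% an unadjusted limma p under 0.05. The part of these lists in the group difference of Rbm11 was not tested.

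Group-centred members were set against the group-centred level of each of these lists apart from the choroid plexus one, whose mice fall into separate clusters. Of the 40 relations 0 passed the adjustment, and 2 had an unadjusted p under 0.05. Htr1f varied with the dentate granule cell level at r = 0.819 (exact permutation p = 0.00639, adjusted 0.256; rho = 0.830, exact permutation p = 0.00792), with r = 0.813 without the 2 mice farthest out. Zfp654 varied with the neocortex and subiculum level at r = 0.778 (exact permutation p = 0.0180, adjusted 0.360; rho = 0.649, exact permutation p = 0.0865). For Rbm11 the r was -0.450 with dentate granule cells and -0.519 with CA pyramidal cells (exact permutation p = 0.280 and 0.209). Both rested on the 2 mice farthest from the median of the list, without which they were -0.183 and -0.0626.

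The genes most like Rbm11 over the 10 mice were sought among the 9968 genes above the median level. As measured they were Acat1 (r = 0.942), Etfa (0.937), Mad2l1 (0.936), Klhdc2 (0.933) and Ndufb5 (0.928). Acat1, Etfa and Ndufb5 encode mitochondrial proteins, and Mad2l1 a protein of the mitotic spindle checkpoint. Group-centred, they were Dtymk (0.980), Zfp941 (0.980), Acat1 (0.933), Nup88 (0.927) and Usp2 (0.927). These values were picked as the highest of many, and carry no test. Hspa13, which does not overlap between the groups either, ranked 948th as measured (r = 0.567) and 9608th group-centred (r = -0.672).

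Genes that work with the members were read from lists of their pathways, 154 genes in all. By limma 0 of 154 passed after adjustment over all genes, and 6 passed an unadjusted p of 0.05, with 2 higher and 4 lower (5.08% of all genes in either direction). The smallest adjusted p among the genes named in the next sentences was 0.922. The list of 55 genes for Rbm11 held splicing RNA-binding proteins, its class, and also Zcchc8, Mtrex and Bcl2l1. Its median difference was -0.042, which is the value of Bcl2l1. In it 1 gene had an unadjusted p under 0.05, Rbm38 at -0.13 (SE 0.057). SRSF1's gene had -0.060 (SE 0.056) and Bcl2l1, which encodes Bcl-x, -0.042 (SE 0.058). Rbm7, the closest relative of Rbm11, had 0.11 (SE 0.058), and Tra2a, another splicing regulator, -0.22 (SE 0.10).

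Among 28 genes of the ESCRT machinery the median was 0.0048. Vps37d, a subunit of ESCRT-I, had -0.13 (SE 0.046) with all 5 Dp3Yah mice below every control, and was the 1 gene of the list with an unadjusted p under 0.05. The ESCRT-III subunits Chmp2a and Chmp4b had 0.024 (SE 0.082) and -0.00070 (SE 0.068), and the ATPase Vps4b -0.097 (SE 0.046). Among 24 genes of glycogen metabolism the median was 0.012 and 1 had an unadjusted p under 0.05, Phka1, a subunit of phosphorylase kinase, at 0.23 (SE 0.073). The brain glycogen phosphorylase Pygb had -0.013 (SE 0.038), the synthase Gys1 -0.050 (SE 0.055) and glycogenin, Gyg, 0.11 (SE 0.084).

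The 13 serotonin receptors had a median of 0.012, and Htr4, at -0.19 (SE 0.062), was the 1 with an unadjusted p under 0.05. The receptors of the same class as Htr1f had 0.021 (SE 0.070, Htr1a), 0.044 (SE 0.059, Htr1b) and 0.0099 (SE 0.059, Htr1d). Among 21 genes of the VGLL, TEAD and Hippo group the median was -0.042, with Tead2 at -0.14 (SE 0.048). In the lipase family the median over 7 genes was -0.027, and Liph, which like Lipi makes lysophosphatidic acid, had 0.10 (SE 0.040) with all 5 Dp3Yah mice above every control, on a dim probe set (the 10.3rd percentile of the levels of all genes). The 6 genes of the CGG-repeat and FMR1 family had a median of -0.00038, and Fmr1 had 0.018 (SE 0.042). The count over all lists at an unadjusted p under 0.05 ran from 5 to 13 when single mice were left out.

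**Figure D4:**
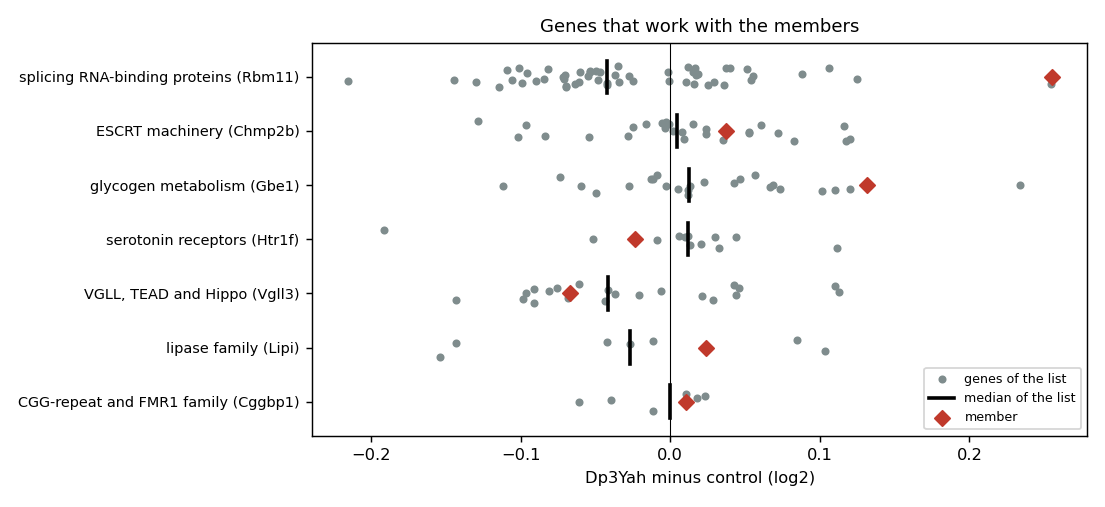
Difference between Dp3Yah and control means (log2) for the genes of each pathway list (grey points, spread vertically for visibility), the median of the list (black line) and the member of that pathway (red diamond). The medians lie between -0.042 and 0.012, and Rbm11 lies at 0.26 beside Srsf5, which encodes a splicing factor (0.25).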

How the data were processed

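Hippocampal RNA of 10 mice was read on Affymetrix Mouse Gene ST arrays. The authors deposited log2 values, 1 per probe set and mouse, and the submitters' processing notes name RMA, limma and the mm10 build; their versions were not given in the sources used here. No column of per-sample values was left out. Of 35556 probe sets, 21789 were paired with 1 gene, 1621 with several and 12146 stayed unnamed, and each of 19939 genes took its probe set with the highest mean. Gene positions came from RefSeq (GRCm38.p6), which held 19856 of the genes. Array medians were 5.64 to 5.71. Dp3Yah and control were compared in R 4.3.3 with limma 3.58.1 (lmFit, eBayes, no covariate, two-sided, Benjamini-Hochberg over all genes). Within-group correlations were tested by exact permutation over 14400 assignments in Python 3.11.15. The scripts' tests were checked on simulated data. The number of arrays limits the precision, and p-values set a difference or correlation against the spread between these mice.

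The members and lists were chosen with earlier results of these data known. Named were the members, their first duplicated neighbours, set proximal genes with the largest differences, up to 4 genes of each list with the smallest unadjusted p, the partners printed, and the 5 genes most like Rbm11. Srsf5 and the partners were named as the largest value or closest relation, some after their values were seen. The rank test was rewritten from the principle of the study's FCROS method. The alternatives were a replicate block, the mean of a gene's probe sets, genes above the median level only, quantile normalisation again, centring on array medians, array weights, a trended and robust variance, all probe sets, the rank test, and leaving out each mouse.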

Additional observations from a re-analysis of the deposited data

Results flagged for a closer look

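In 2 of 16 groups examined (8 members in 2 groups of 5 mice), 1 mouse stood apart from the other 4 by most of the range of its group, and chance alone flags about 1 in 20 groups. For Rbm11, control replicate 1 was the lowest at 6.89, with the other controls between 6.99 and 7.03. Without it the difference of Rbm11 was 0.23 (SE 0.073). For Lipi, Dp3Yah replicate 3 was the highest at 4.39, with the others between 4.30 and 4.31.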

How the results depend on the processing

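The difference of Rbm11 stayed positive under all 16 alternatives run, between 0.21 and 0.30, both ends of that range coming from single mice left out (Dp3Yah replicates 5 and 4). Its groups do not overlap, so leaving out a mouse or weighting the arrays could change the size of the difference but not its sign. With the replicate number as a block it was 0.26 (SE 0.068). Pairing of the mice by number was not evident: the correlation of same-numbered mice ran from -0.417 to 0.372, and 2 of 5 were over 0.1. Of the 5 Dp3Yah mice, 2 correlated best with their own number, and so few mice cannot exclude pairing. The block gave 3 called genes over all genes, as did the fit without it, and 0 called in the lists and among the other proximal genes. Over all genes, array weights called 5, all probe sets 1, the trended and robust variance 6 and the rank test 915, and leaving out single mice gave 1 to 4 (1 without Dp3Yah replicate 4 or control replicate 3, 4 or 5). The rank test sets its limits on the spread of the genes' own mean ranks. It therefore calls genes in both tails whether or not any differ, and its 915 (4.59% of all genes) is not a count of genes found to differ. The causes of the other changes were not tested. The sign of the difference held in all alternatives run for Lipi, Gbe1 and Chmp2b, in 14 of 15 for Vgll3, 12 of 15 for Htr1f, 13 of 16 for Cggbp1 and 9 of 16 for Zfp654. The block, the mean of a gene's probe sets and the limit to genes above the median level cannot move a member's own difference. Their share of these counts, and of that for Rbm11, was therefore fixed in advance. The median over the 8 members ran from 0.0036 to 0.029. With the limit to genes above the median level, which keeps only Rbm11, Gbe1, Chmp2b, Cggbp1 and Zfp654, it was 0.037. Array number and, for Lipi, low signal limit what can be seen.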
